A study of Mus musculus with 24 samples.

Results

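The acute-phase protein genes followed here were Saa1, Saa2, Saa3 and Saa4 (serum amyloid A), Lcn2 (lipocalin-2), Orm1 and Orm2 (orosomucoids), Hp (haptoglobin), Hpx (hemopexin) and Socs3 (suppressor of cytokine signaling 3). They were listed by name, with earlier results of these data known, and each was looked up in the gene tables of 2 mouse liver cohorts. All 10 were found among the 21755 genes of the p16-3MR table. In the wild-type (WT) table, whose 12643 row labels have lost 9 lower-case letters, 4 of the 10 had a label that could stand for 1 symbol only: Saa2, Saa3, Saa4 and Lcn2. The labels of the other 6 could stand for several symbols and were not used.

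Liver RNA was profiled in 24 mice, with 3 livers in each of 8 groups formed by genotype, sex and treatment with ganciclovir (GCV) or vehicle (VEH, pH11 water). p16-3MR mice carry a 3MR cassette under the p16 locus of a bacterial artificial chromosome, so that cells using p16 make a viral thymidine kinase that turns GCV toxic. The VEH-treated p16-3MR mice carried the same transgene, and WT mice lack it. p16-3MR females and males were started at 16 to 18 months of age and injected intraperitoneally on 5 consecutive days every month. The sample labels put the GCV dose at 150 mg/kg. The study's methods state a different dose, so the dose is uncertain. WT females and males received monthly GCV or VEH from 6 months of age for 3 months. The p16-3MR livers are batch 1 and the WT livers batch 2 in the labels, so genotype, starting age and batch cannot be told apart, and no test between the cohorts was made.

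The acute-phase response is a change in the proteins that the liver secretes during infection, injury or inflammation. Cytokines, above all interleukin-6 acting through gp130, JAK kinases and STAT3, and interleukin-1 acting through NF-kappaB, switch on these genes in hepatocytes together with C/EBP transcription factors. Serum amyloid A rises most steeply among them in mice, whereas haptoglobin and hemopexin are made at high levels in resting liver as well, and SOCS3 is induced by STAT3 and feeds back on the receptor complex.

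The members sit in 2 gene clusters and 4 single loci (GENCODE annotation of GRCm38). The 4 Saa genes lay within 42316 bases of chromosome 7: Saa3 at chr7:46711998-46715700 and Saa4 at chr7:46727998-46732603, Saa1 at chr7:46740497-46742980 (all on the minus strand), and Saa2 at chr7:46751790-46754313 (plus strand). Saa1 and Saa2 point away from each other across a gap of 8809 bases. Orm1 (chr4:63344560-63348163) and Orm2 (chr4:63362449-63365878) lie on the plus strand of chromosome 4 on either side of Orm3, within 21319 bases. The single loci were Lcn2 at chr2:32384633-32388252, Hpx at chr7:105591613-105600137, Hp at chr8:109575128-109579172 and Socs3 at chr11:117966079-117970047, each on the minus strand.

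Promoter sequence is shown for Saa1 and Saa2, which varied most, for Saa3, which varied least, and for Orm2. The RefSeq promoter table (GRCm38.p6, 250 bases before to 50 after each start, 32851 promoters) held 8 of the 10 members, all except Orm1 and Hp. Each line gives the bases upstream of the transcription start in the sense of the gene. Capitals mark matches to TTGCNNAA (C/EBP) or to the core promoter box TATAAA, searched on both strands.
Saa1, chr7:46742981-46743230, minus strand: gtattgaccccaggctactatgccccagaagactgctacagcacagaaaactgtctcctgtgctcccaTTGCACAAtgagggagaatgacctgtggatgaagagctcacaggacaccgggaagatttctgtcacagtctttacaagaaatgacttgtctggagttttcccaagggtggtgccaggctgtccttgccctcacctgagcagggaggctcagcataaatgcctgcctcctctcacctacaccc
Saa2, chr7:46751583-46751789, plus strand: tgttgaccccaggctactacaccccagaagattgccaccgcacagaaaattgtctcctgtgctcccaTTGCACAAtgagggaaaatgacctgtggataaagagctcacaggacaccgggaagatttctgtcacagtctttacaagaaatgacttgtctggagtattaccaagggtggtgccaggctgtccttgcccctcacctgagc
Saa3, chr7:46715701-46715926, minus strand: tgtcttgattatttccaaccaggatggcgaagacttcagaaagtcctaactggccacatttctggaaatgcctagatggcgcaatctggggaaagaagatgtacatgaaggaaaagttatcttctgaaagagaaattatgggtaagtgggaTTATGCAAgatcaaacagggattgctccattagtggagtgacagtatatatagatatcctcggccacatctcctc
Orm2, chr4:63362199-63362448, plus strand: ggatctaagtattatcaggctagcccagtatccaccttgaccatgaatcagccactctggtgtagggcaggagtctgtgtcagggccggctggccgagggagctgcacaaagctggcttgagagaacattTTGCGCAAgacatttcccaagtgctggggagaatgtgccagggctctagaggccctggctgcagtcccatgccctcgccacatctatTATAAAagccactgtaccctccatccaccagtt
TTGCNNAA was present in 7 of the 8 promoters (Saa1, Saa2, Saa3, Saa4, Lcn2, Orm2 and Hpx), against 10.8% of all promoters of that length. TTCNNNGAA (STAT) was in the Socs3 promoter alone (8.30% of all), TATAAA in the Orm2 promoter alone (13.6% of all), and GGANNTTCC (NF-kappaB) in 0 of the 8 (4.26% of all). The Saa1 and Saa2 promoters were identical at 287 of 301 aligned positions (95.4%). A match only says that these letters stand in the window.

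Estimated counts summed to between 5005760 and 7160172 in the p16-3MR libraries and to between 3084517 and 5667904 in the WT libraries. Levels are given as CPM, the counts scaled to the TMM-adjusted library size, and 3 counts correspond to 0.293 to 2.32 CPM in p16-3MR livers and 0.516 to 0.943 CPM in WT livers. Libraries were made by Smart-3SEQ, which reads the 3′ ends of transcripts. p16-3MR liver 33 (female, GCV) stood apart, with 64.0% of its counts on mitochondrially encoded genes against 12.3 to 22.4% in the other 11, and a TMM factor of 0.259. The hepatocyte markers Alb, Apoa1, Ttr, Cps1, Ass1, Serpina1c, Cyp3a11 and Tat summed to 80442 to 155087 CPM in 10 p16-3MR livers, but to 24934 CPM in liver 32 (male, GCV) and 40698 CPM in liver 24 (male, VEH). Albumin made up most of each sum. In liver 33 Alb was 146129 CPM, but Ttr (634 CPM), Cps1 (525 CPM), Ass1 (220 CPM) and Serpina1c (961 CPM) were below their levels in liver 24. In bulk tissue, fewer cells of a type and less RNA per cell cannot be told apart.

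Saa1 and Saa2 encode the main circulating serum amyloid A proteins of the mouse. In p16-3MR females, Saa2 was 18475, 33.2 and 36.1 CPM in GCV livers 31, 33 and 35, and 38.6, 4184 and 76.4 CPM in VEH livers 27, 28 and 29. In p16-3MR males it was 305, 51.8 and 4363 CPM in GCV livers 30, 32 and 34, and 59.3, 81.4 and 18.8 CPM in VEH livers 24, 25 and 26. Livers 31, 28 and 34, from 3 different groups, were thus at 4184 CPM or more, liver 30 was next, and the other 8 were at 81.4 CPM or less. Livers 31, 28 and 34 were also the 3 highest for Saa1. It was 7251, 30.9 and 25.8 CPM in GCV females against 33.8, 2000.4 and 57.6 CPM in VEH females, and 249, 53.6 and 1834 CPM in GCV males against 45.4, 66.6 and 21.1 CPM in VEH males. The groups overlapped in both sexes for both genes. The Saa2 to Saa1 count ratio was 2.55, 2.09 and 2.38 in livers 31, 28 and 34, and 0.889 to 1.4 in the other 9. The last 150 transcript bases of the pair were 93.4% identical, so how the authors' estimation split reads between them could alter this ratio.

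Saa3 is made in macrophages and fat as well as in liver, and Saa4 is the constitutive form carried on high-density lipoprotein. Saa3 was low, at 27, 7.72 and 3.86 CPM in GCV females and 4.29, 18.4 and 12.5 CPM in VEH females, which overlapped. In males it was 16.6, 23.4 and 8.64 CPM with GCV and 7.12, 8.21 and 4.38 CPM with VEH, with no overlap but with liver 34 close to the highest VEH liver. Saa4 was 1242, 57.9 and 341 CPM in GCV females and 373, 553 and 253 CPM in VEH females. It was 328, 86.5 and 992.5 CPM in GCV males and 70.5, 299 and 271 CPM in VEH males, so that both sexes overlapped. The 3 lowest Saa4 values came from livers 33, 24 and 32, the libraries described above for their mitochondrial share or low hepatocyte markers.

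Lipocalin-2 binds bacterial siderophores and is made by hepatocytes, macrophages and neutrophils. Lcn2 was 2822, 249 and 23.3 CPM in GCV females and 44.0, 699 and 68.0 CPM in VEH females, which overlapped. In males it was 339, 693 and 513 CPM with GCV and 134, 11.4 and 7.03 CPM with VEH, with no overlap. Unlike Saa1 and Saa2, Lcn2 was thus high in all 3 GCV males, liver 32 included.

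The orosomucoids are abundant plasma glycoproteins that bind lipophilic compounds. Orm1 was 10822, 1817 and 800.5 CPM in GCV females against 740, 2751 and 859 CPM in VEH females, and 2187, 832.5 and 4436 CPM in GCV males against 562.5, 942 and 662 CPM in VEH males. Groups overlapped in both sexes. Orm2 was 8082, 735 and 114 CPM in GCV females against 125, 1671 and 207 CPM in VEH females, which overlapped. In males it was 942, 487 and 3248 CPM with GCV against 138, 116 and 68.8 CPM with VEH, with no overlap. The last 150 transcript bases of Orm1 and Orm2 differ at 1 of 150 positions (99.3% identical), so the division of 3′-end counts between them is uncertain.

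Haptoglobin captures free haemoglobin and hemopexin captures free haem. Hp was 10060, 2531 and 839 CPM in GCV females against 1085, 5346 and 1398 CPM in VEH females, and 3881, 1676 and 4480 CPM in GCV males against 1833, 1128 and 1117 CPM in VEH males. Hpx was 15580, 4797 and 2337 CPM in GCV females against 1688, 6654 and 2577 CPM in VEH females, and 5980, 2097 and 5868 CPM in GCV males against 2730, 1839 and 1631 CPM in VEH males. All of these groups overlapped, in males only through liver 32, which was below VEH liver 24 for both genes.

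Socs3 is the intracellular brake on interleukin-6 signaling and not a secreted protein. It was 23.3, 0 and 2.52 CPM in GCV females against 1.47, 15.5 and 6.80 CPM in VEH females. The count of 0 in liver 33 allows up to 2.32 CPM. In males it was 19.2, 30.2 and 16.3 CPM with GCV and 8.40, 3.93 and 1.41 CPM with VEH, with no overlap, and liver 32 was the highest of all 12.

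**Figure D1:**
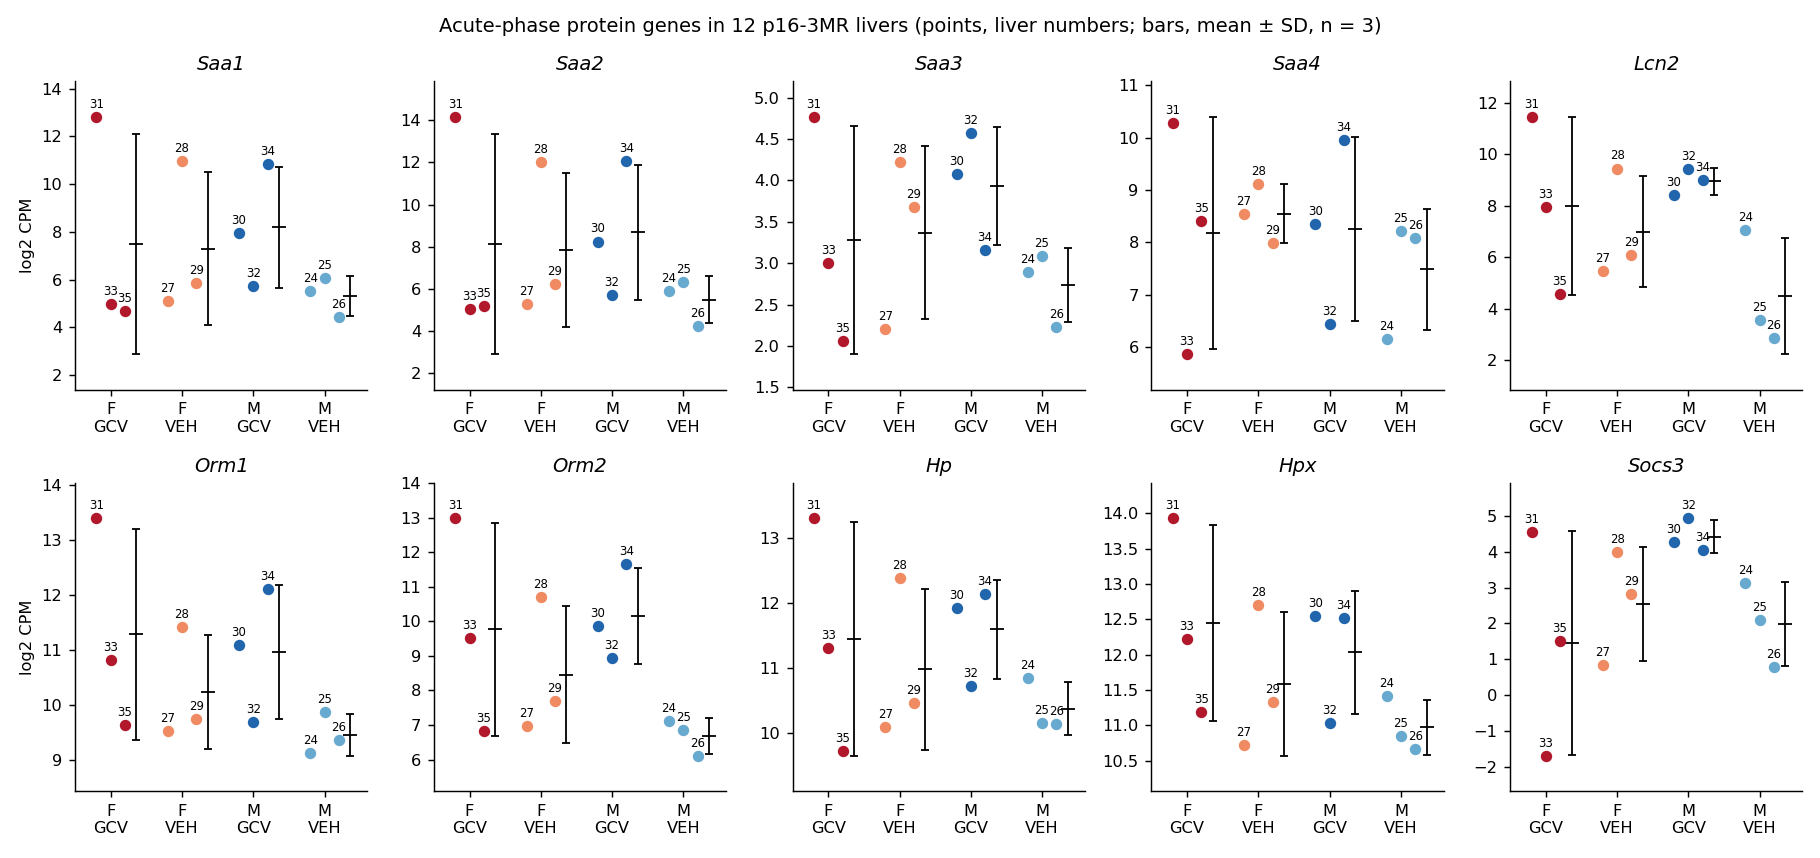
Level of each of the 10 members (log2 CPM, prior count 2) in every p16-3MR liver, with points for livers, and a bar and whiskers for the mean ± SD of each group of 3. For Saa1 and Saa2, liver 31 of the GCV females, liver 28 of the VEH females and liver 34 of the GCV males sit far above the other livers of their groups.

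Some livers kept a like rank from member to member and others did not. Liver 31 was the highest of 12 for 9 of the 10 members and second for Socs3. Liver 28, a VEH female, was among the 3 highest for 9 members, and livers 34 and 30 were among the 4 highest for 9 and 8 members. These 4 livers were above the table median for all 10 members. At the other end, VEH male 26 was among the 3 lowest for 9 members. Livers 32 and 33 varied: liver 32 ranked from 1 for Socs3 to 10 for Saa4, and liver 33 from 5 for Orm1, Orm2, Hp and Hpx to 12 for Saa4 and Socs3. The 10 genes together took 6.32% of all counts in liver 31, 2.59% in liver 28, 2.40% in liver 34 and 1.70% in liver 30, against 0.265 to 1.09% in the other 8. These shares and ranks come from the same libraries and are a description.

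**Figure D2:**
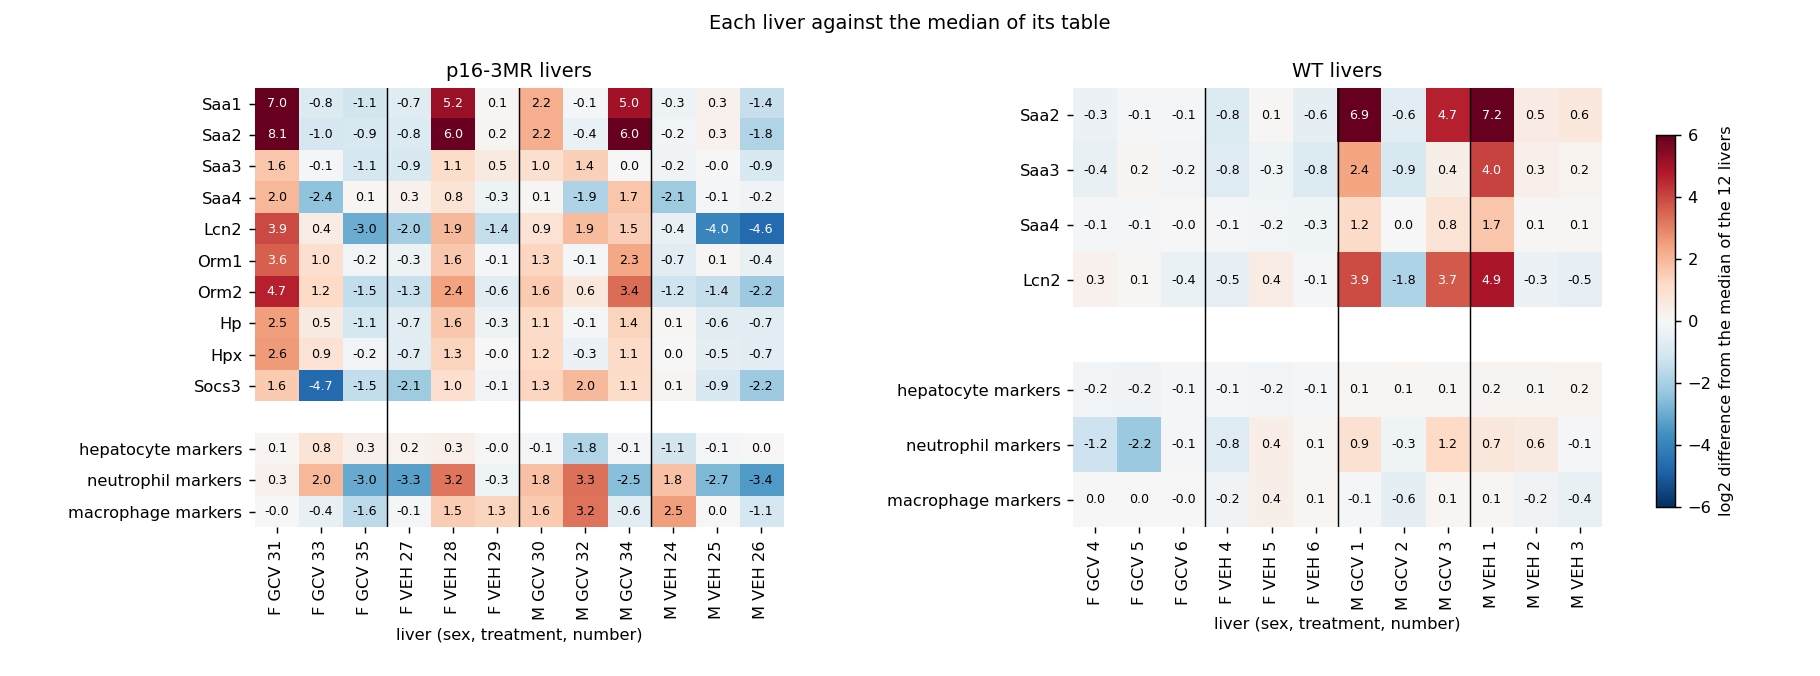
Deviation of each member from its median over the livers of the table (log2 CPM), with members as rows, livers as columns and colour for the deviation, and the summed hepatocyte, neutrophil and macrophage markers as rows below. In the p16-3MR table, livers 31, 28, 30 and 34 are above the median for all 10 members, whereas liver 32 is high for Lcn2, Saa3 and Socs3 and low for Saa4.

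Livers of 1 group differed more for these genes than for most genes. The SD within groups of the log2 CPM of Saa2 was 3.61 in p16-3MR livers, rank 18 of 12409 genes with a mean of at least 10 counts, whose median SD was 0.612. It was 3.11 for Saa1 (rank 25), 2.34 for Lcn2 (rank 101), 1.98 for Orm2 (rank 215) and 1.87 for Socs3 (rank 293). The SD was lower for Saa4 (1.56), Orm1 (1.26), Hp (1.17), Hpx (0.98) and Saa3 (0.96), all still above the median gene. The highest liver exceeded the median liver 272-fold for Saa2 and 130-fold for Saa1, but 5.73-fold for Hp and 5.87-fold for Hpx.

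**Figure D3:**
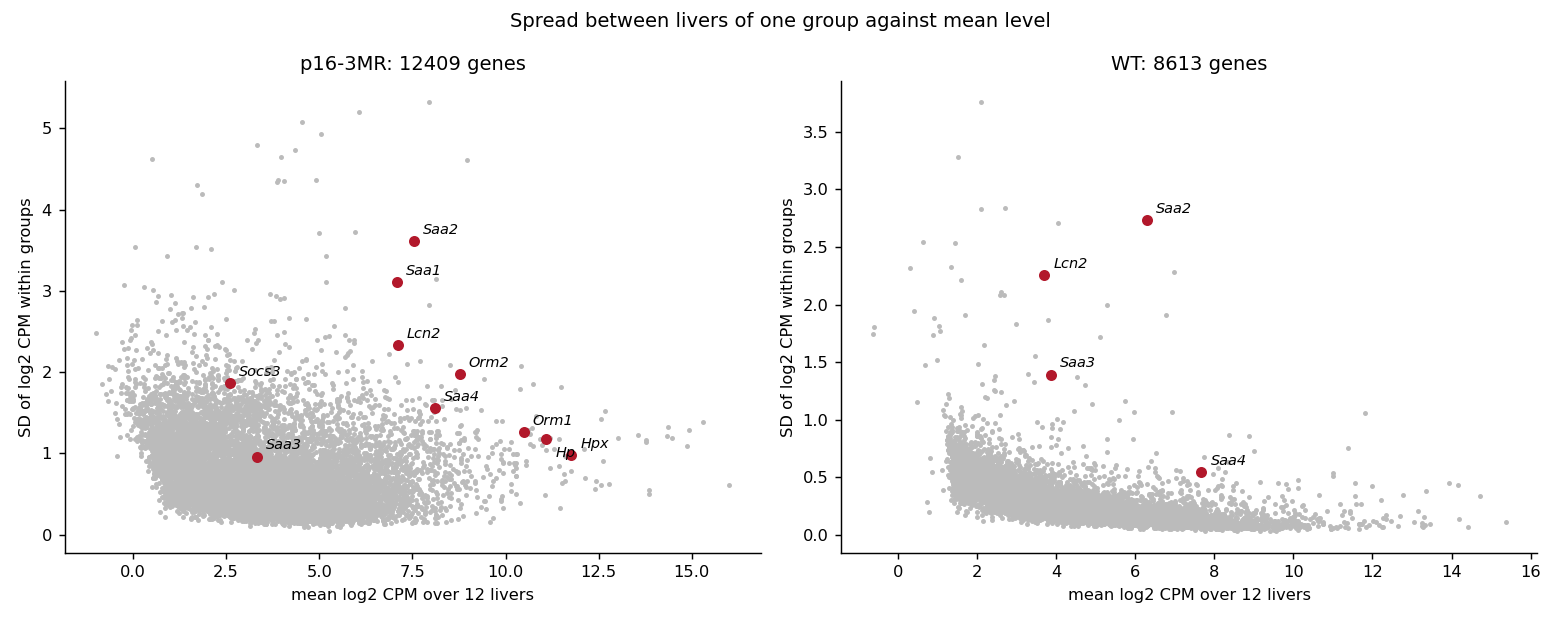
Within-group SD of the log2 CPM (vertical axis) against the mean log2 CPM over 12 livers (horizontal axis) for all genes with a mean of at least 10 counts (grey) and the members (red, named), in the p16-3MR and WT tables. The SD of Saa2 is 3.61 against a median of 0.612 in p16-3MR livers, and 2.74 against 0.254 in WT livers.

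The comparison of GCV with VEH asked whether treatment that kills p16-using cells altered hepatic acute-phase genes in either sex. In p16-3MR females, the mean CPM of all 10 members was higher with GCV, but none passed the test (edgeR quasi-likelihood test, Benjamini-Hochberg adjustment over all genes). On the mean log2 CPM, GCV females were lower for Saa3 (3.28 against 3.37), Saa4 (8.19 against 8.55) and Socs3 (1.45 against 2.55). The log2 fold change was 2.11 for Saa2 (SE 2.12, adjusted p = 0.80), 1.81 for Saa1 (SE 1.87, adjusted p = 0.807), 2.16 for Orm2 (SE 1.30, adjusted p = 0.689) and 1.93 for Lcn2 (SE 1.45, adjusted p = 0.735). It was 1.63 for Orm1 (SE 0.96), 1.06 for Hpx (SE 0.85), 0.78 for Hp (SE 0.90), 0.48 for Saa4 (SE 0.96), 0.22 for Socs3 (SE 1.00) and 0.16 for Saa3 (SE 0.66). The count of members called was 0 of 10, and it was 0% of the 21755 genes of the table. DESeq2, which gave no adjusted p for Saa1 and Saa2, and limma-voom called 0 members. At an unadjusted p under 0.05 the edgeR count was also 0 of 10, against 7.37% of all genes. That unadjusted count was 4 of 10 without liver 28, 2 of 10 without liver 35, and 2 of 10, in the opposite direction, without liver 31. The members' median was 1.34, against 0 over all genes. The direction rested on liver 31: without it, the fold changes of all 10 members were negative, with a median of -0.99, Saa2 at -5.37 and Saa1 at -4.62. Without VEH liver 28 they were larger, at 6.67 for Saa2 and 5.66 for Saa1. GCV and VEH females overlapped for every member, whereas all GCV females lay above all VEH females for 5.91% of genes and below them for 7.35%.

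In p16-3MR males the levels were higher with GCV for all 10 members, by a median log2 fold change of 2.01 against 0.04 over all genes, but again none passed the test. The largest were Saa2 at 4.89 (SE 2.40, 95% interval -0.66 to 10.43) and Saa1 at 4.0 (SE 2.05, interval -0.71 to 8.72). Orm2 followed at 3.86 (SE 1.4, interval 0.63 to 7.08), Lcn2 at 3.33 (SE 1.54, interval -0.21 to 6.88) and Socs3 at 2.24 (SE 1.03, interval -0.13 to 4.61). These intervals use the 8 residual degrees of freedom alone, fewer than the edgeR test, and so are wider than its unadjusted p values imply. Orm1 (1.78, SE 0.96), Saa3 (1.31, SE 0.67), Hp (1.30, SE 0.91), Hpx (1.17, SE 0.86) and Saa4 (1.14, SE 0.97) differed less. The adjusted p of each of the 10 was 1 in the edgeR test, and 0% of all genes were called. At an unadjusted p under 0.05, 3 of the 10 members passed, against 1.91% of all genes. With 1 liver left out this count ranged from 0 (without VEH male 26) to 7 (without GCV female 31), and it was 1 without VEH male 25, GCV male 30 or VEH female 29. The unadjusted edgeR p was 0.0157 for Orm2, 0.0473 for Socs3 and 0.0483 for Lcn2. DESeq2 and limma-voom passed 4 and 7 members at that unadjusted level, with 418 and 5018 genes passing in all, and called 0 members. DESeq2 gave no adjusted p for Saa1 and Saa2, so it could not call them.

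All GCV males lay above all VEH males for 4 of the 10 members, Saa3, Lcn2, Orm2 and Socs3, as did 3.57% of the genes of the table. The members share the same livers, so these are not separate observations. Liver 34 carried most of the difference for Saa1, Saa2 and Saa4, but not for Saa3, for which it was the lowest GCV male. Without liver 34 the log2 fold change fell from 4.89 to 1.75 for Saa2, from 4.0 to 1.77 for Saa1 and from 1.14 to -0.04 for Saa4. Without VEH liver 24 that of Lcn2 was 5.82. When livers 24, 32 and 33 were left out, an alternative chosen after the data were seen, GCV males 30 and 34 lay above VEH males 25 and 26 for all 10 members, as 16.4% of all genes did with 2 livers a group, and edgeR still called 0 of the 10. At an unadjusted p under 0.05, 8 of the 10 passed there, as did 1449 of the 21755 genes.

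**Figure D4:**
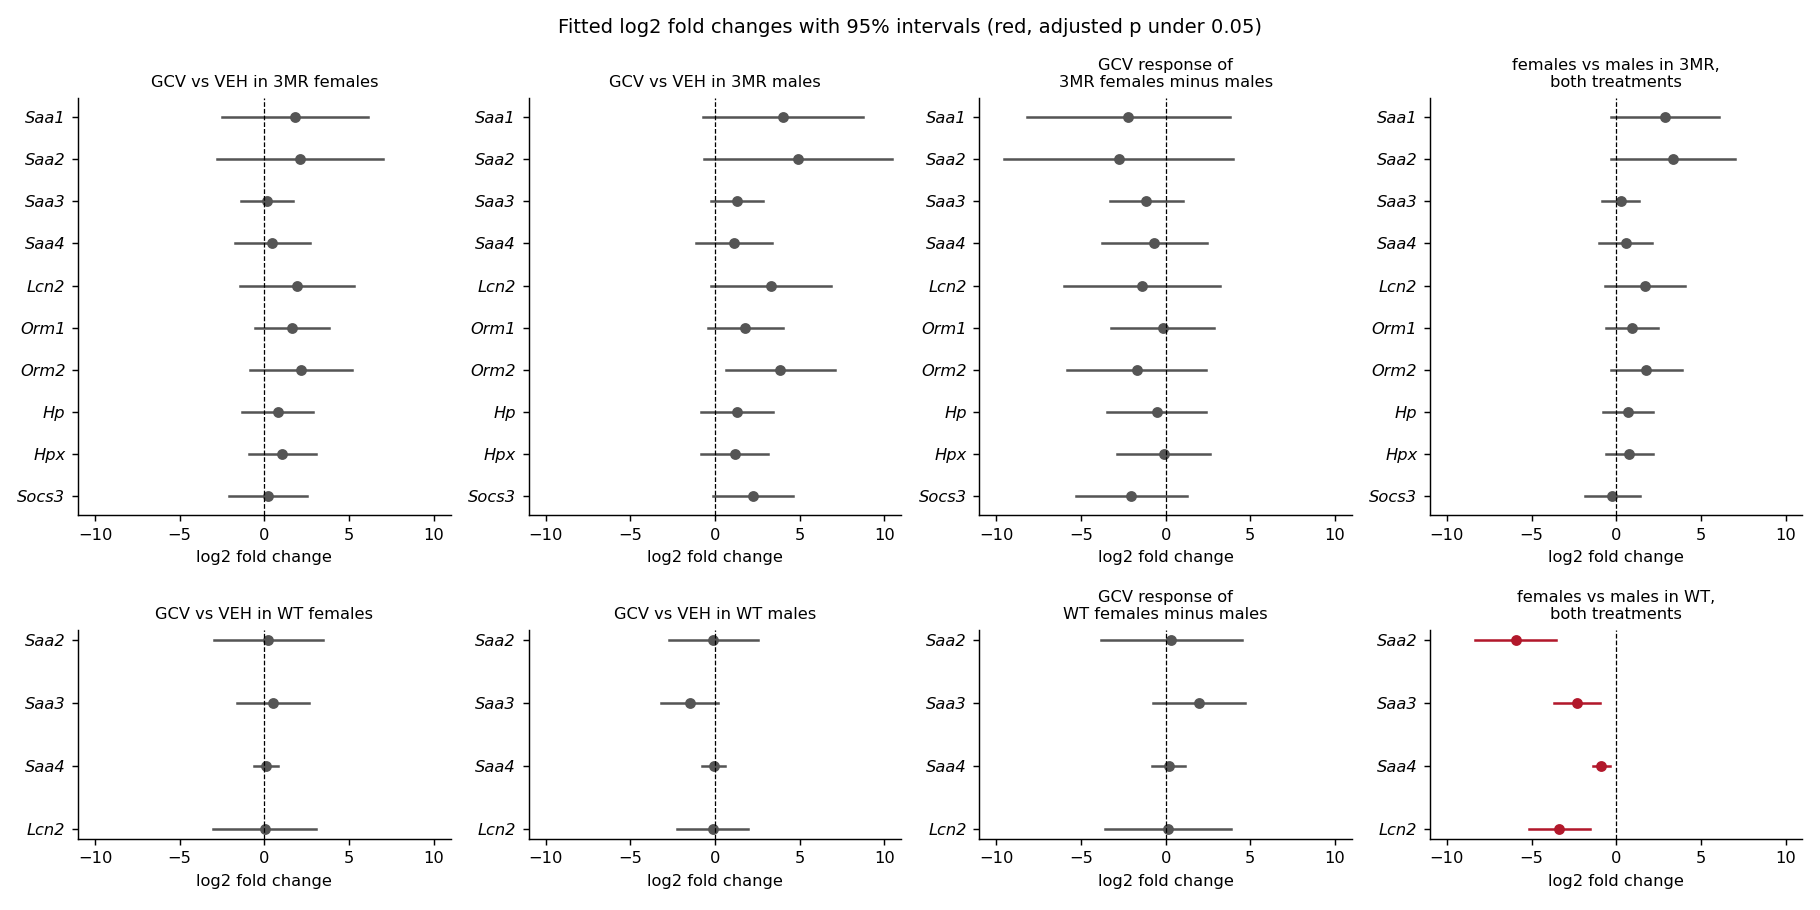
Log2 fold change of each member (points) with its 95% interval (bars) from the edgeR fit, for each comparison in the p16-3MR and WT tables (red, adjusted p under 0.05). In the p16-3MR table every interval except that of Orm2 in males includes 0, and in the WT comparison of females with males all 4 intervals lie below 0. The intervals use the residual degrees of freedom alone and are wider than the unadjusted p values of the edgeR test imply.

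The GCV difference was not shown to depend on sex. The response of p16-3MR females minus that of males was negative for all 10 members, from -0.11 for Hpx (SE 1.19) to -2.78 for Saa2 (SE 2.94, interval -9.56 to 4.0). The edgeR test called 0 of 10 members and 0% of all genes, and at an unadjusted p under 0.05 it passed 0 of 10, against 3.78% of all genes. DESeq2, which gave no adjusted p for Saa1 and Saa2, and limma-voom called 0. Without liver 28 the sign was positive for 7 of the 10, and without liver 34 for 5 of the 10, with a median of -0.11. Without liver 31 it was negative for all 10, with a median of -3.37 against -1.27 in all livers, and 6 of 10 passed at an unadjusted p under 0.05.

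Between p16-3MR females and males, with both treatments weighted equally, 9 of the 10 members had a positive fitted difference, that is, a higher mean CPM in females. The log2 difference was 3.36 for Saa2 (SE 1.58, interval -0.29 to 7.01, adjusted p = 0.686) and 2.87 for Saa1 (SE 1.37, interval -0.29 to 6.04, adjusted p = 0.686), whereas that of Socs3 was -0.24 (SE 0.71). The edgeR test called 0 of 10 members, against 0.303% of all genes, and passed 0 of 10 at an unadjusted p under 0.05, against 7.05%. Every member overlapped between the sexes, which failed to overlap for 0.317% of genes with all females above and 0.299% with all females below. Without liver 31, 4 of the 10 were positive, and the median was -0.10 against 0.84 in all livers, with Saa2 at -0.38 and Saa1 at -0.34. The unadjusted count of 0 became 3 of 10 without liver 27, 35 or 34. On the mean log2 CPM the differences were smaller for Saa2 (0.91) and Saa1 (0.64) and larger for Socs3 (-1.21). That of Saa3 was -0.02, against a fitted 0.26. A two-sided exact permutation test of this mean, 6 females against 6 males, was chosen after the data were seen. It gave p from 0.310 (Socs3) to 0.981 (Saa3). The smallest p possible was 0.00216.

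WT livers gave values for 4 members. Saa2 was 22.1, 26.5 and 26.1 CPM in GCV females 4, 5 and 6, and 15.7, 29.9 and 18.3 CPM in VEH females 4, 5 and 6. In WT males it was 3350, 18.3 and 735 CPM in GCV livers 1, 2 and 3, and 4292, 39.4 and 43.7 CPM in VEH livers 1, 2 and 3. The 6 females thus lay within a narrow range, whereas VEH male 1, GCV male 1 and GCV male 3 stood far above the other 3 males. The same 3 males were the 3 highest of the 12 WT livers for all 4 members. Their libraries also stood apart, with TMM factors of 0.835, 0.8445 and 0.866 against 0.912 to 1.14 in the other WT livers. Their most abundant genes took 29.5, 28.95 and 27.2% of counts, against 18.6 to 25.4%.

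Lcn2 was 8.59, 7.48 and 5.29 CPM in GCV females and 4.82, 9.73 and 6.58 CPM in VEH females. In males it was 113, 1.64 and 94.6 CPM with GCV and 220, 5.46 and 4.84 CPM with VEH. The other 3 males lay within or below the female values. Saa3 was 8.13, 12.7 and 9.66 CPM in GCV females against 6.19, 9.07 and 6.11 CPM in VEH females, and 58.5, 5.54 and 14.3 CPM in GCV males against 190, 13.6 and 13.0 CPM in VEH males. Saa4 was 159, 163 and 170 CPM in GCV females against 162, 152 and 142 CPM in VEH females. In males it was 381, 171 and 300 CPM with GCV against 539, 177 and 181 CPM with VEH, so that even the lowest male was just above the highest female.

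The 4 genes took 0.438% of counts in VEH male 1, 0.330% in GCV male 1 and 0.0991% in GCV male 3, against 0.0192 to 0.0237% in the other 9 WT livers. Their within-group SD of the log2 CPM was 2.74 for Saa2 (rank 5 of 8613 genes, median 0.254), 2.25 for Lcn2 (rank 12), 1.39 for Saa3 (rank 36) and 0.55 for Saa4 (rank 727).

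**Figure D5:**
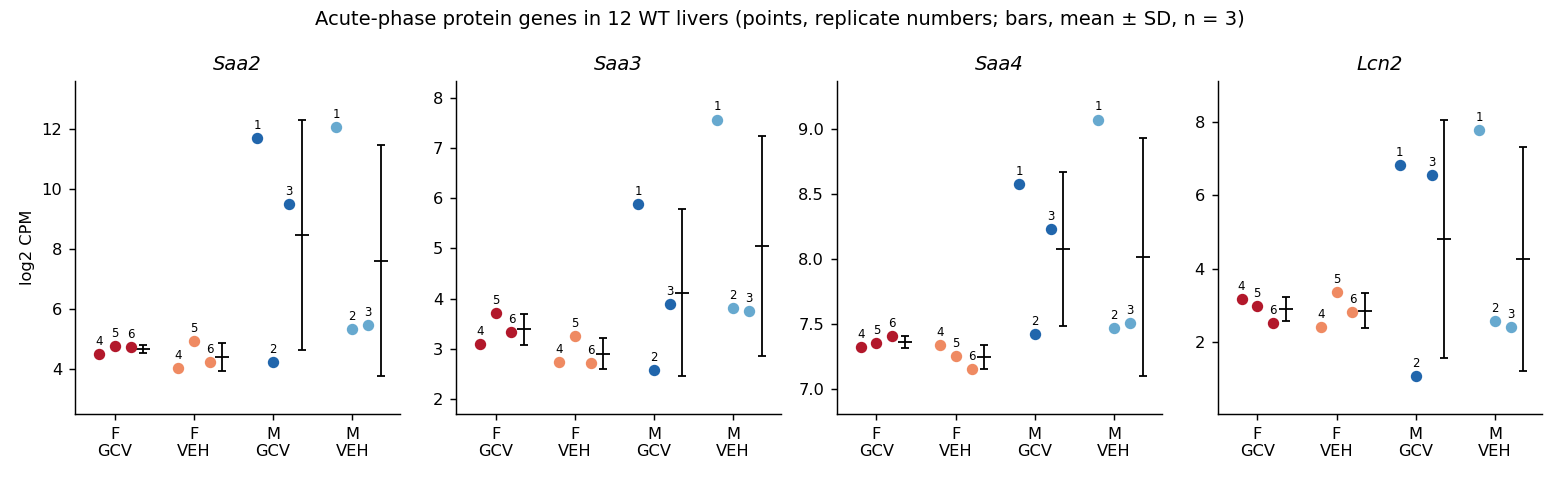
Level of Saa2, Saa3, Saa4 and Lcn2 (log2 CPM, prior count 2) in every WT liver, with points for livers, and a bar and whiskers for the mean ± SD of each group of 3. VEH male 1, GCV male 1 and GCV male 3 are the 3 highest livers for each gene, and the 6 females lie close together.

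GCV against VEH in WT livers asked whether the drug acts without the transgene. In WT females the log2 fold changes were 0.23 for Saa2 (SE 1.39), 0.50 for Saa3 (SE 0.93), 0.11 for Saa4 (SE 0.30) and 0.02 for Lcn2 (SE 1.32). The edgeR test called 0 of 4 members against 0.00791% of all genes, and passed 0 of 4 at an unadjusted p under 0.05 against 4.56%. In WT males they were -0.09 for Saa2 (SE 1.15), -1.49 for Saa3 (SE 0.74, edgeR adjusted p = 0.889), -0.07 for Saa4 (SE 0.30) and -0.14 for Lcn2 (SE 0.91). The test called 0 of 4 members against 0% of all genes, and passed 0 of 4 at an unadjusted p under 0.05 against 5.06%. The intervals were wide, from -2.74 to 2.56 for Saa2 in males. Without VEH male 1 the male differences turned positive, at 5.04 for Saa2 (edgeR adjusted p = 0.0204) and 3.73 for Lcn2 (adjusted p = 0.0333). Without GCV male 1 that of Saa2 was -1.96. The female response minus the male response ranged from 0.15 (Lcn2, SE 1.61) to 1.99 (Saa3, SE 1.18). The test called 0 of 4 against 0.00791% of all genes, and passed 0 of 4 at an unadjusted p under 0.05 against 4.45%. Without VEH male 1 all 4 were negative, with a median of -2.13 against 0.26 in all livers, and 3 of 4 passed at an unadjusted p under 0.05. DESeq2 and limma-voom called 0 members in these 3 comparisons. With limma-voom 3 of 4 members were higher in WT males, with a median of 1.15 against -0.12 in the edgeR fit. In the difference of the responses 3 of 4 were lower, with a median of -1.05.

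WT females had lower levels than WT males for all 4 members in the edgeR test, and 4 of 4 were called, against 7.94% of all genes (20.1% at an unadjusted p under 0.05). The log2 difference, females minus males, was -5.94 for Saa2 (SE 1.04, adjusted p = 0.000493), -3.36 for Lcn2 (SE 0.78, adjusted p = 0.00825), -2.32 for Saa3 (SE 0.59, adjusted p = 0.0148) and -0.88 for Saa4 (SE 0.21, adjusted p = 0.0109). This fit compares mean CPM levels, which the 3 high males dominate, and only Saa4 had no overlap between 6 females and 6 males, as was so with all females lower for 2.46% of the genes. On the mean log2 CPM, a two-sided exact permutation test, chosen after the data were seen, gave p = 0.00216 for Saa4 (difference -0.74), the smallest p possible. For Saa4 this value follows from the lack of overlap and adds nothing to it. The same permutation test gave p = 0.0173 for Saa2 (-3.53), p = 0.0649 for Saa3 (-1.44) and p = 0.173 for Lcn2 (-1.66). limma-voom called 1 of the 4, Saa4, whereas DESeq2 called the other 3 and not Saa4 (adjusted p = 0.0627). In VEH livers alone the edgeR fit called Saa2 and Saa3 but neither Saa4 (adjusted p = 0.0841) nor Lcn2 (adjusted p = 0.0961). The call of Lcn2 was lost without VEH male 1 (log2 difference -1.42, edgeR adjusted p = 0.118). There the median difference of the 4 members was -1.27, against -2.84 in all livers. The call of Saa3 was lost without GCV male 1 (-1.62, edgeR adjusted p = 0.109).

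Markers of other cells moved with some of these values. The 6 cholangiocyte markers summed to 143, 142, 111, 98.0 and 85.9 CPM in livers 32, 31, 30, 28 and 34, the 5 highest, and GCV males (111, 143 and 85.9 CPM) did not overlap VEH males (64.1, 51.4 and 50.3 CPM). Spp1 made up most of these sums, at 131, 125, 90.9, 92.6 and 54.0 CPM in those 5 livers, and was 55.9 CPM in VEH male 24, so that alone it overlapped. Krt19, a defining cholangiocyte marker, was 0.195 to 0.771 CPM in livers 32, 31, 30 and 28 and 16.9 CPM in liver 34. In p16-3MR livers the 10 neutrophil markers summed to 562 CPM in liver 32, 522 CPM in liver 28, 226 CPM in liver 33, 194 CPM in liver 30, 193 CPM in liver 24 and 69.0 CPM in liver 31, against 5.47 to 47.2 CPM in the other 6. Ly6g was at 0 in 9 of the 12 livers. Liver 34, among the 3 highest for the summed members, had 9.80 CPM, with 3 of the 10 markers at 0. The 8 Kupffer cell and macrophage markers summed to 3521 CPM in liver 32, 2122 CPM in liver 24, 1120 CPM in liver 30 and 1073 CPM in liver 28. They summed to 366 and 240.5 CPM in livers 31 and 34. Lcn2, Saa3 and Socs3 were high in liver 32, which had the highest neutrophil and macrophage marker sums, and Saa1 and Saa2 were not. Liver 24, second for macrophage markers, ranked 7 for Lcn2, 9 for Saa3 and 6 for Socs3. Lcn2 and Saa3 were highest in liver 31. By group, neutrophil marker sums ranged from 7.04 to 226 CPM in GCV females, 5.90 to 522 CPM in VEH females, 9.80 to 562 CPM in GCV males and 5.47 to 193 CPM in VEH males. The part of these cells in the members' values was not tested. In WT livers 3 of the 10 neutrophil markers were measured, and their sum was 0.575 to 6.10 CPM. Such sums are near the floor, as 3 counts are 0.516 to 0.943 CPM, so their order is uncertain. GCV males 1 and 3 and VEH male 1 were at 5.03, 6.10 and 4.26 CPM, the 3 highest of the 12 livers (next 3.94 CPM). The 5 measured macrophage markers summed to 148, 176 and 173 CPM in these males. They summed to 108, 136 and 118 CPM in GCV male 2, VEH male 2 and VEH male 3, and to 138 to 204 CPM in females. Cidec, the 1 adipocyte marker measured, was 0.943, 0.305 and 0.532 CPM in the high males. It was 4.31, 6.56 and 6.97 CPM in the other 3 males and 0.442 to 0.904 CPM in females. The part of these cells in the WT values was not tested. Hepatocyte markers summed to 14544 to 16228 CPM in WT females and 17991 to 19744 CPM in WT males over the 4 that were measured.

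The inducing ligands of the pathway were scarce. Of 8 (Il6, Il1a, Il1b, Tnf, Osm, Lif, Il22 and Il11), 7 were tested in p16-3MR livers and 1 in WT livers, and 0 were called in any comparison by the edgeR test. With GCV all 7 had a negative log2 fold change in p16-3MR females, with a median of -1.98 against 0 over all genes, where the members' was positive. In p16-3MR males 5 of 7 were positive, with a median of 0.65 against 0.04. The median of the female response minus the male response was -3.08, against -0.04 over all genes. Between p16-3MR females and males 7 of 7 were negative, with a median of -2.29 against -0.07. At an unadjusted edgeR p under 0.05, 3 of the 7 passed there, against 7.05% of all genes. Il1b, a trigger of the NF-kappaB arm, was 1.74 to 7.72 CPM in GCV females, 3.35 to 12.8 CPM in VEH females, 4.03 to 85.3 CPM in GCV males and 1.09 to 21.6 CPM in VEH males. Il1a was 0.503 to 1.54 CPM in GCV females, 2.55 to 4.91 CPM in VEH females, 1.34 to 25.8 CPM in GCV males and 1.07 to 17.4 CPM in VEH males. Over the 3 ligands with a mean of at least 10 counts, liver 32 was 3.86 and liver 24 was 2.30 above the table median on the log2 scale, livers 30 and 28 were 1.29 and 0.53 above it, and livers 31 and 34 were at -1.30 and -1.12. The 4 livers with the highest members thus lay on both sides of the median for the ligands.

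Of the 9 receptors, 0 were called in p16-3MR livers for any comparison by edgeR. Il6st (gp130, the shared signal-transducing subunit) was 109 to 140 CPM in GCV females, 101 to 212 CPM in VEH females, 74.0 to 97.9 CPM in GCV males and 87.9 to 144 CPM in VEH males. Lifr, the leukemia inhibitory factor receptor, was 241 to 1180 CPM in GCV females and 186 to 791.5 CPM in VEH females, against 33.6 to 157 CPM in GCV males and 43.8 to 179 CPM in VEH males, so that its sexes did not overlap. In WT livers 8 receptors were tested, and between the sexes 2 of the 8 were called, against 7.94% of all genes. Lifr was higher in females (log2 difference 0.40, edgeR adjusted p = 0.0111) and Il1rap, the interleukin-1 receptor accessory protein, lower (-0.72, adjusted p = 0.000266). Of the 18 signal transducers and transcription factors, 0 were called by edgeR in either table, with 18 tested in p16-3MR livers and 10 in WT livers. Hnf4a, which maintains hepatocyte gene expression, was 355.5 to 574 CPM in p16-3MR females and 77.1 to 419 CPM in males, lowest in liver 32. Jak1, a kinase bound to gp130, was 37.9 to 132 CPM over all 12 p16-3MR livers and 111 to 144 CPM over all 12 WT livers.

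The other positive acute-phase proteins were high in the same livers as the members. Over 21 of the 22 with a mean of at least 10 counts, the median deviation from the table median (log2) was 1.52 in liver 31 with 19 of 21 above it, 1.29 in liver 28 with 20 of 21, 0.59 in liver 30 with 19 of 21 and 0.50 in liver 34 with 17 of 21. In the other 8 livers 1 to 12 of the 21 were above it. Fgb, the fibrinogen beta chain, was 4186 to 16377 CPM in GCV females, 5552 to 12473 CPM in VEH females, 2274 to 10354 CPM in GCV males and 3292 to 5782 CPM in VEH males. C3, the central complement component, was 5656 to 9764 CPM in GCV females, 8812 to 18988 CPM in VEH females, 2481 to 8621 CPM in GCV males and 3850 to 6008 CPM in VEH males. GCV and VEH livers overlapped within each sex for both genes, whereas the C3 values of VEH females lay above those of all males.

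In the GCV comparison of p16-3MR males 22 of 22 had a positive log2 fold change with a median of 0.91, against 0.04 over all genes, and 0 were called by edgeR. At an unadjusted p under 0.05, 4 of the 22 passed, against 1.91% of all genes: Apcs (serum amyloid P), Fgl1, and the metallothioneins Mt1 and Mt2, named after their values were seen. In p16-3MR females 15 of 22 were positive, with a median of 0.21 and 0 called. Between p16-3MR females and males 20 of 22 were positive, with a median of 0.80 against -0.07 over all genes, and 0 were called. At an unadjusted edgeR p under 0.05, 6 of the 22 passed there, against 7.05% of all genes. In WT livers 10 of the 22 were tested. For WT GCV against VEH 0 were called in either sex. Between the sexes 4 of the 10 were called, against 7.94% of all genes. Higher in females were C3 (log2 difference 0.51, edgeR adjusted p = 7.57e-06), Hamp (hepcidin, 0.80, adjusted p = 0.000453) and Mt2 (2.44, adjusted p = 2.07e-05), and Mt1 was lower (-0.41, adjusted p = 0.000216). C3, Hamp and Mt2 thus differed in the opposite direction to the Saa genes and Lcn2. Of the 10 tested, the 3 high WT males had more above the table median than the other males, but not than the females. VEH male 1 had 5, GCV male 1 had 6 and GCV male 3 had 5. The other 3 males had 2 each, and females had 6 to 8.

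Negative acute-phase proteins, which fall in the response, varied among the livers with the highest members. Of 10, liver 31 had 9, liver 34 had 8, liver 28 had 7 and liver 30 had 3 above the table median. Livers 32 and 24 had 0, with median deviations of -1.68 and -0.93 on the log2 scale. Alb, serum albumin, was 81265 to 146129 CPM in GCV females, 71958 to 97662 CPM in VEH females, 20498 to 65913 CPM in GCV males and 31250 to 68500 CPM in VEH males. Trf, transferrin, was 8155 to 25825 CPM in GCV females, 14842 to 30412 CPM in VEH females, 11284 to 19746 CPM in GCV males and 9417 to 12597 CPM in VEH males. The edgeR test called 0 of the 10 in p16-3MR livers. Of 5 tested in WT livers, Serpina6 (corticosteroid-binding globulin, log2 difference 1.60, edgeR adjusted p = 3.57e-11) and Trf (0.20, adjusted p = 0.0449) were called higher in females than in males, against 7.94% of all genes called.

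Another list held receptors of the proteins and genes that handle them or their cargo (Cd163, Lrp1, Hmox1, Hmox2, Slc22a17, Lrp2, Fpr2, Scarb1, Tlr2 and Tlr4). Of these 10 genes, 10 were tested in p16-3MR livers and 6 in WT livers, and 0 were called by edgeR in any comparison. Their median log2 fold change with GCV was -1.18 in p16-3MR females and 0.81 in p16-3MR males. The 8 Kupffer cell and macrophage markers summed to 126 to 366 CPM in GCV females against 344 to 1073 CPM in VEH females, and to 240.5 to 3521 CPM in GCV males against 178.5 to 2122 CPM in VEH males. Their part in this difference was not tested. Lrp1, the hepatic receptor for hemopexin bound to haem, was 186 to 402 CPM in GCV females, 351 to 813 CPM in VEH females, 339 to 387.5 CPM in GCV males and 257 to 389.5 CPM in VEH males. Scarb1, the high-density lipoprotein receptor, was 31.7 to 45.3 CPM in GCV females and 59.4 to 72.1 CPM in VEH females, with no overlap, and 55.5 to 78.2 CPM in GCV males against 58.0 to 63.4 CPM in VEH males. Over the 8 with a mean of at least 10 counts, liver 32 had 8 above the table median, liver 28 had 7 and liver 34 had 1.

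The genes whose pattern over the 12 p16-3MR livers was most like the mean of Saa1 and Saa2, among 12365 candidates, were Ppil1 (Spearman correlation 0.944), Tmem41a (0.902), Tmem176a (0.902), Bcl7c (0.881) and Ldha (0.881). Tmem176a was 344.5 CPM in liver 31 and 102 CPM in liver 26. Ldha, lactate dehydrogenase A, was 768 CPM in liver 31 and 205 CPM in liver 33. By Pearson correlation the first 5 were Serpina3n (0.927), Tmem176a (0.925), Lrg1 (0.894), Slc13a3 (0.890) and Cyb561 (0.885), of which Serpina3n and Lrg1 stand on the list of other positive acute-phase proteins. In WT livers, where Saa2 alone was used, the first 5 of 6776 were Ftcd (0.937), Slc39a1 (0.923), Med21 (0.909), Dnajc15 (0.895) and Rpl41 (0.895), and their levels spanned far less: Ftcd was 165 to 217 CPM. By Pearson correlation the first 5 in WT livers were Ftcd (0.948), Tmem176a (0.917), Vtn (0.913), Mup15 (0.905) and Fam47e (0.903). Of these only Ftcd was also among the first 5 by Spearman correlation. All these correlations are descriptions over 12 livers that share library depth and composition.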

How the data were processed

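Smart-3SEQ libraries of 24 livers were used, as 2 tables in which all columns map to a labelled sample. The authors trimmed reads and estimated transcript abundance with Salmon, summed to genes with tximport, and deposited estimated counts per gene (expected counts), whole numbers not scaled for depth; the submitters' processing notes name mm10, FastQC 0.11.9, Trim Galore 0.6.10 and Salmon 1.10.3. PCR copies are not independent molecules, so floors (3 counts) cover counting error only.

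Ensembl IDs were given GENCODE symbols (21698 of 21755 matched). Of 12643 WT labels, 10496 matched 1 symbol, 2067 several and 80 none. Each table was fitted alone with edgeR 4.0.16 in R 4.3.3: TMM, 1 mean per group over 12 livers, quasi-likelihood test, Benjamini-Hochberg adjustment over all rows, calls at an adjusted p under 0.05. Log2 CPM used a prior count of 2. Fold changes follow mean CPM, not mean log2 CPM. Alternatives were DESeq2 1.42.0 and its size factors, limma 3.58.1 (voom with quality weights), filterByExpr, removal of mitochondrially encoded genes, fits on 1 sex or on VEH livers, a replicate block, and leaving out livers. The code was tested on simulated data. Permutation tests, chosen after the data were seen, went through all 924 splits of the 12 livers with numpy 2.4.6.

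Named genes were the 10 members, list genes called in a comparison or among the 2 highest expressed of a list, and the 5 genes most like Saa1 and Saa2. Members and lists were chosen with earlier results of these data known. The design text calls the livers biological replicates. The Saa1 label of the WT table was ambiguous, so likeness there used Saa2.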

Additional observations from a re-analysis of the deposited data

How the results depend on the processing

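With 3 livers a group and a common biological coefficient of variation of 55.8% in p16-3MR livers against 16.6% in WT livers, intervals of the p16-3MR members spanned several log2 units, and an adjusted p that missed the threshold does not show equal levels. Over 1060 member values under the alternatives, permutation tests included, 965 kept their side of the threshold and their direction or moved by less than their SE. Another 81 were counted as moved, 10 lost a call, 2 gained one and 2 changed sign with a call. The permutation values of the p16-3MR members were counted as moved whatever their size, and some shifted by less than the SE. Among the 965 and the 81, 73 values changed sign without a call, 12 of them in p16-3MR females and 20 in the response of p16-3MR females minus males. Depth limited Socs3 and Saa3, which had as few as 0 and 10 counts in liver 33.

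The cause of each change below was not tested. Counts of called genes in p16-3MR females were 0 in the edgeR fit, 90 with DESeq2, 7 with limma-voom, 3 with only the 6 female livers and 4 without livers 24, 32 and 33 (chosen after seeing the data), and 0 to 1 when 1 liver was left out. In p16-3MR males they were 0, 5 with DESeq2, 145 with limma-voom, 5 without those 3 livers, and 0 to 1 when 1 liver was left out. For the response of p16-3MR females minus males they were 0, 3 with DESeq2, 1 with limma-voom and 2 without those 3 livers. Between the sexes of p16-3MR mice they were 66, 196 with DESeq2, 215 with limma-voom, 26 in VEH livers and 178 without those 3 livers. In WT females they were 1, 17 with DESeq2, 0 with filterByExpr, 3 with limma-voom, 44 with only the 6 female livers, and 0 to 12 when 1 liver was left out. In WT males they were 0, 1 with DESeq2 and 0 to 46 when 1 liver was left out. For the response of WT females minus males they were 1, 0 with filterByExpr and 0 to 17 when 1 liver was left out. Between the sexes of WT mice they were 1004, and 483 in VEH livers. None of these alternatives called a member in p16-3MR livers, where DESeq2 gave no adjusted p for Saa1 and Saa2.

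In WT males without VEH male 1, Saa2 was 5.04 (edgeR adjusted p = 0.0204) and Lcn2 3.73 (adjusted p = 0.0333), and the values without 1 liver ranged from -1.96 to 5.04 for Saa2 and from -0.71 to 3.73 for Lcn2. Between the WT sexes, calls were lost for Saa4 with DESeq2 (-0.90, adjusted p = 0.0627) and in VEH livers (-0.97, edgeR adjusted p = 0.0841), for Lcn2 in VEH livers (-3.43, edgeR adjusted p = 0.0961), and with limma-voom for Saa2 (-3.34, adjusted p = 0.185), Saa3 (-1.27, adjusted p = 0.226) and Lcn2 (-1.40, adjusted p = 0.505).

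WT GCV and VEH livers share replicate numbers. The deviations of same-numbered livers correlated at -0.05, -0.06 and 0.00 in females and 0.20, 0.28 and -0.07 in males. Those of differently numbered livers correlated at -0.045 to 0.085 in females and -0.35 to 0.17 in males. With so few livers these values cannot decide whether the numbers pair them, and the main fit used no pairing. With the replicate block the counts of called genes were 106 in WT females, 68 in WT males and 79 for the difference of the responses. The block called Saa3 in WT males (-1.08, edgeR adjusted p = 0.000205) and in the difference (1.59, adjusted p = 0.000478). Under the block 3 of the 4 members were higher with GCV in WT males, against 0 of 4 in the main fit. In p16-3MR livers no number is shared.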
